A study of Mus musculus with 8 samples.

Results

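The genes described here are the GABA receptor subunits other than the alpha subunits that were listed for this description by symbol: Gabrb1, Gabrb2, Gabrg1, Gabrg3, Gabrd, Gabbr1 and Gabbr2. All 7 have a row in the deposited table of 14765 genes, and all 7 passed the filter on low counts, among 13911 genes tested. Rows were taken by symbol, from a list drawn up with earlier results of these data known. The samples were PrL tissue of mice labelled C57, 4 Sham and 4 SNI, each profiled by bulk poly(A) RNA sequencing. PrL is read here as the prelimbic part of the medial prefrontal cortex, and SNI as spared nerve injury, an operation that leaves lasting neuropathic pain, with Sham as the control group. The sources used here do not give age, the time after surgery, or whether each library came from its own mouse. The p-values therefore reflect library-to-library spread only, and some of it may be technical. In bulk tissue, fewer cells of a type and less RNA per cell cannot be told apart.

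GABA is the main inhibitory transmitter of the cortex and acts on receptors of 2 kinds. GABA-A receptors are chloride channels made of subunits arranged in a ring, usually alpha and beta subunits with either a gamma or the delta subunit. The beta subunits help to form the GABA binding site, a gamma subunit is needed for the usual synaptic receptor and its benzodiazepine response, and the delta subunit belongs to receptors outside synapses that carry tonic inhibition. The GABA-B receptor is a G protein-coupled receptor made of a pair of unlike subunits: the product of Gabbr1 binds GABA, and that of Gabbr2 brings the receptor to the cell surface and couples to the G protein. It lowers transmitter release at terminals and opens inwardly rectifying potassium channels on dendrites.

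None of the 7 genes passed the threshold between SNI and Sham, a Benjamini-Hochberg adjusted p (FDR) of 0.05 over all genes tested, with edgeR's quasi-likelihood test. The count was 0 of 7, where 5.02% of all genes tested passed, 2.15% by rising and 2.87% by falling. At an unadjusted p under 0.05 the count was 2 of 7 (Gabrg1 and Gabbr2), where 21.1% of all genes did so. DESeq2 called 1 of the 7 (Gabrg1), where it called 7.96% of all genes it tested. For limma voom the count was 0, where it called 5.9% of all genes. Log2 fold changes ran from -0.31 for Gabrb2 to 0.40 for Gabrg1, with 3 above and 4 below 0 and a median of -0.08, against a median of 0.01 over all genes tested. The 4 SNI libraries all lay on the same side of the 4 Sham libraries for 1 of the 7, Gabrg1, where 12.7% of all genes tested were separated in this way, 5.64% with SNI higher and 7.02% with SNI lower. Levels are given as CPM, counts relative to the library total after TMM scaling, which corrects that total for differences in composition.

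**Figure D1:**
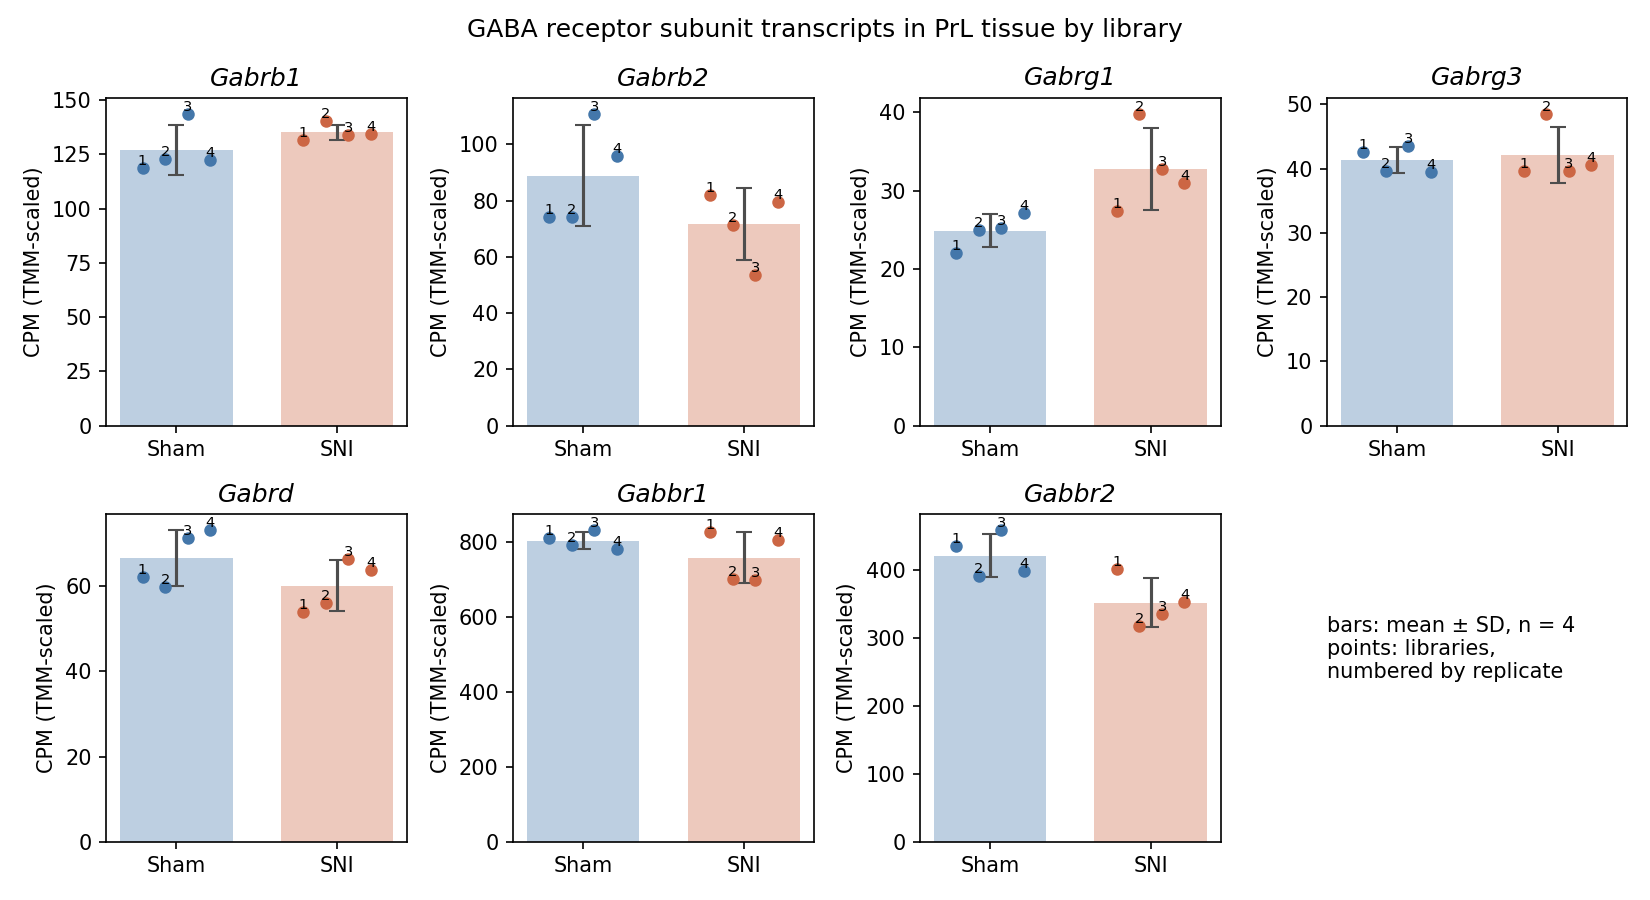
TMM-scaled CPM of the 7 genes (vertical axes, each from 0) in Sham and SNI libraries, with bars for the mean, error bars for the SD (n = 4) and points numbered by replicate. Gabrg1 is the gene whose groups do not overlap, with Sham points at 22.1 to 27.1 CPM and SNI points at 27.5 to 39.8 CPM.

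Gabrg1 encodes the gamma1 subunit, an alternative gamma known from amygdala, basal ganglia and glial cells. Its counts were 325, 377, 399 and 473 in Sham replicates 1 to 4 and 443, 804, 492 and 515 in SNI replicates 1 to 4. As CPM these were 22.1, 25.0, 25.2 and 27.1 in Sham and 27.5, 39.8, 32.8 and 31.0 in SNI. All SNI libraries stood above all Sham libraries, but SNI replicate 1 only just cleared Sham replicate 4, and SNI replicate 2 was the highest. Group means were 24.9 ± 2.10 CPM for Sham and 32.8 ± 5.20 CPM for SNI (SD, n = 4 per group). Its log2 fold change was 0.40 ± 0.114 (SE), with a 95% confidence interval of 0.16 to 0.64. Its edgeR p was 0.00291 before and 0.0536 after adjustment, just outside the threshold. Across the alternatives the adjusted p ran from 0.0234 to 0.526, so the call depends on the processing. It was 0.0483 with upper quartile scaling, 0.0348 with library totals alone and 0.0334 with DESeq2. Without SNI replicate 1 the log2 fold change was 0.47 (edgeR adjusted p = 0.0234), and without SNI replicates 2 and 3 it was 0.23 (0.35). Since SNI replicate 1 was the lowest of its group and SNI replicates 2 and 3 the highest, these shifts follow from the libraries chosen.

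Levels of markers of other tissue and cells are given here beside those of Gabrg1. The summed level of 9 striatal neuron markers was highest in SNI replicate 2, at 888 CPM, and in SNI replicate 4, at 875 CPM. The other 2 SNI libraries held 373 and 448 CPM, and the Sham libraries 252 to 495 CPM, so the groups overlapped. Even so, the mean log2 level of these markers was 1.02 higher in SNI than in Sham. SNI replicate 2 was the highest library for both the striatal sum and Gabrg1. Sham replicate 1, which held the 495 CPM, had the lowest Gabrg1 level of all libraries, 22.1 CPM. SNI replicate 4 had less Gabrg1 (31.0 CPM) than SNI replicate 3 (32.8 CPM), whose striatal sum was 448 CPM. With the mean log2 level of these markers as a covariate, Gabrg1 had a log2 fold change of 0.29 (edgeR adjusted p = 0.526). Of the 9 markers, 0 passed the threshold, where 5.02% of all genes tested did. The 7 astrocyte markers summed to 3121 to 3766 CPM in Sham and 3008 to 3924 CPM in SNI, again overlapping. With them as a covariate the Gabrg1 value was 0.28 (edgeR adjusted p = 0.198). Of all genes tested, 0.295% passed with the striatal covariate and 2.87% with the astrocyte covariate, against 5.02% in the reported fit. The deposited table holds 3 of 5 choroid plexus and ependymal markers, of which 1 passed as higher, and their sum was 4.99 to 6.94 CPM in Sham and 10.04 to 14.2 CPM in SNI, with no overlap. Of 8 microglial markers 2 passed as higher, with overlapping sums of 388 to 472 and 434 to 694 CPM. Of 5 thalamic and septal markers 1 passed as higher, with overlapping sums. Beside these counts, 2.15% of all genes tested passed as higher. Apart from the covariate fits, the part of the tissues and cells of these lists in the Gabrg1 and Gabra2 differences was not tested.

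Gabrg1 lies on the minus strand of chromosome 5 (GRCm38, positions 70751047 to 70842617), in a cluster of GABA-A subunit genes with Gabra2, Gabra4 and Gabrb1. No other annotated gene overlaps it. Gabra2, which encodes the alpha2 subunit, is the next gene of the cluster, on the same strand at a gap of 114979 bases (70957597 to 71095849). Gabra2 had 57.4, 64.4, 59.0 and 50.8 CPM in Sham and 82.5, 138.7, 98.5 and 92.5 CPM in SNI. As for Gabrg1, SNI replicate 2 was the highest and SNI replicate 1 the lowest of the SNI group. Gabra2 passed the threshold, with a log2 fold change of 0.83 ± 0.142 (SE) and an edgeR adjusted p of 0.00788. It kept that call whichever of the 8 libraries was left out and lost it with the striatal markers as a covariate (0.67, edgeR adjusted p = 0.186). Gabra4 and Gabrb1, whose starts lie 815.7 and 815.5 kb from that of Gabrg1, had log2 fold changes of -0.18 and 0.09. These 4 genes were the only tested ones with a start within 1000 kb of the Gabrg1 start, a window chosen after the values were seen.

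The promoter sequences of these neighbours are shown because Gabrg1 and Gabra2 were the subunit genes of the cluster with non-overlapping groups. Each run is the 250 bases before the RefSeq start (GRCm38.p6), read on the minus strand, chr5:70842618-70842867 for Gabrg1 and chr5:71095850-71096099 for Gabra2. Capitals mark the dinucleotide CG, which reads the same on both strands.
Gabrg1: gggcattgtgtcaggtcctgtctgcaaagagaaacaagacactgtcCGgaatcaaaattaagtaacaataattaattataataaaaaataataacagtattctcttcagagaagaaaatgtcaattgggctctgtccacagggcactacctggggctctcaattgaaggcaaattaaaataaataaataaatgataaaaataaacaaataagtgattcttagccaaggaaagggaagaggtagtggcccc
Gabra2: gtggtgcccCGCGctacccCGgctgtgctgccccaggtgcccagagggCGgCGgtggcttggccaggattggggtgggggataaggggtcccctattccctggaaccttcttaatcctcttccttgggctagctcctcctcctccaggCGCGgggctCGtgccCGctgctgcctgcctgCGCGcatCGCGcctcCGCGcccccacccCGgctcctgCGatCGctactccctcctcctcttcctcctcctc
The Gabrg1 window held 1 CG and 35.6% G or C, and the Gabra2 window held 18 CG. At least 1 CG stood in 92.1% of all 32851 promoter windows of this length, and 18.8% held as few as the Gabrg1 window. Of the 7 genes, 6 matched the promoter table. Gabbr2 had the most CG, 37 in its window, Gabbr1 had 16, Gabrg3 had 9, and the windows of Gabrb1 (18 and 6) and Gabrb2 (8, 8 and 4) differed between alternative starts. The neighbouring genes whose SNI libraries all lay above Sham thus had unlike promoter composition.

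Gabrg3 encodes the gamma3 subunit, a scarcer alternative gamma. It stood at 42.5, 39.6, 43.5 and 39.5 CPM in Sham and at 39.7, 48.5, 39.6 and 40.5 CPM in SNI. Apart from SNI replicate 2, the 8 libraries lay within a narrow band and the groups overlapped. This gave a log2 fold change of 0.03 ± 0.0886 (SE), with an interval of -0.16 to 0.22 (edgeR adjusted p = 0.886). Its sign rested on SNI replicate 2: without that library the value was -0.05. Gabrg3 spans 670.7 kb on the minus strand of chromosome 7 (56716465 to 57387188), beside Gabra5 at a gap of 20483 bases. The annotation places 6 processed pseudogenes within that span.

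The beta subunit genes had values of opposite sign and did not pass the threshold. Gabrb2, which encodes the beta2 subunit of a widespread synaptic receptor, varied most among the 7. Its values were 74.1, 74.3, 110.9 and 95.9 CPM in Sham and 81.9, 71.4, 53.5 and 79.7 CPM in SNI. The groups overlapped, since Sham replicates 1 and 2 lay below SNI replicates 1 and 4. SNI replicate 3 was the lowest library and Sham replicate 3 the highest. The log2 fold change was -0.31 ± 0.157 (SE), with an interval of -0.66 to 0.04 (edgeR adjusted p = 0.287). It was -0.18 without Sham replicate 3, -0.19 without SNI replicate 3 and -0.14 without SNI replicates 2 and 3. These were the highest Sham library and the lowest SNI libraries. Leaving them out shrinks the difference by construction, so no conclusion is drawn from it. Gabrb2 lies on the plus strand of chromosome 11 (42419757 to 42629028), with no overlapping gene.

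Gabrb1, the beta1 subunit, was the steadier beta gene. It had 118.8, 122.8, 143.7 and 122.2 CPM in Sham and 131.7, 140.1, 134.0 and 134.3 CPM in SNI. All SNI libraries lay above 3 Sham libraries and below Sham replicate 3. Its log2 fold change was 0.09 ± 0.0788 (SE), with an interval of -0.08 to 0.26 (edgeR adjusted p = 0.547), and it was 0.16 without Sham replicate 3. Gabrb1 lies on the plus strand of chromosome 5 (71658113 to 72149037). Its first 196 bases overlap Gabra4 on the opposite strand. The sources used here do not say whether counting used the strand, so reads from that stretch are uncertain. The span also holds the antisense gene Gm38562 and 2 processed pseudogenes, and reads there are uncertain too.

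Gabrd, the delta subunit of receptors outside synapses, stood at 62.2, 59.8, 71.2 and 73.2 CPM in Sham. In SNI it stood at 54.0, 56.0, 66.3 and 63.9 CPM. All 4 SNI libraries were below the Sham median, yet SNI replicates 3 and 4 exceeded Sham replicates 1 and 2. This gave a log2 fold change of -0.15 ± 0.0925 (SE), with an interval of -0.35 to 0.04 (edgeR adjusted p = 0.371). Gabrd is a compact gene of 13.1 kb on the minus strand of chromosome 4 (155384980 to 155398112), with no overlapping gene.

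The GABA-B subunits were the most abundant of the 7. Gabbr1 had 811, 791, 832 and 780.1 CPM in Sham and 827, 702.5, 698 and 805 CPM in SNI. SNI replicates 1 and 4 lay within the Sham range, and SNI replicates 2 and 3 lay below it. The log2 fold change was -0.08 ± 0.0814 (SE), with an interval of -0.26 to 0.09 (edgeR adjusted p = 0.593). Without SNI replicates 2 and 3, the lowest of the group, it was 0.02, a shift that follows from that choice. Gabbr2 had 435, 392, 459.5 and 399 CPM in Sham and 402, 318, 336 and 353 CPM in SNI. SNI replicate 1 lay above Sham replicates 2 and 4, and the other 3 SNI libraries lay below every Sham library. Group means were 421 ± 31.9 CPM for Sham and 352 ± 36.3 CPM for SNI (SD, n = 4 per group). Its log2 fold change was -0.26 ± 0.0887 (SE), with an interval of -0.45 to -0.07, an edgeR p of 0.0104 and an adjusted p of 0.108. Among the alternatives it passed only without SNI replicate 1 (-0.33, edgeR adjusted p = 0.0393) and was -0.16 without SNI replicates 2 and 3. For Gabbr2, SNI replicate 1 was the highest of its group and SNI replicates 2 and 3 the lowest, so these shifts also follow from the choice. In the annotation Gabbr1 (chromosome 17, plus strand, 37045966 to 37075067) and Gabbr2 (chromosome 4, minus strand, 46662305 to 46991873) overlap no other gene.

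The summed level of excitatory neuron markers was lower in every SNI library. The 6 genes summed to 6561 to 7274 CPM in Sham and 4583 to 6364 CPM in SNI, with no overlap. Of the 6, 1 passed the threshold as lower, where 2.87% of all genes tested did. The lowest libraries for these markers were SNI replicates 2 and 3, at 4583 and 5583 CPM, which were also the lowest for Gabbr1 and Gabbr2. SNI replicate 4 was close to them at 5618 CPM. Its Gabbr1 level, 805 CPM, lay within the Sham range, and its Gabbr2 level, 353 CPM, lay below it. The 9 GABAergic neuron markers summed to 1085 to 1398 CPM in Sham and 999.9 to 1245 CPM in SNI, overlapping. Of these 9, 0 passed, where 5.02% of all genes tested did. The part of these markers in the subunit values was not tested.

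**Figure D2:**
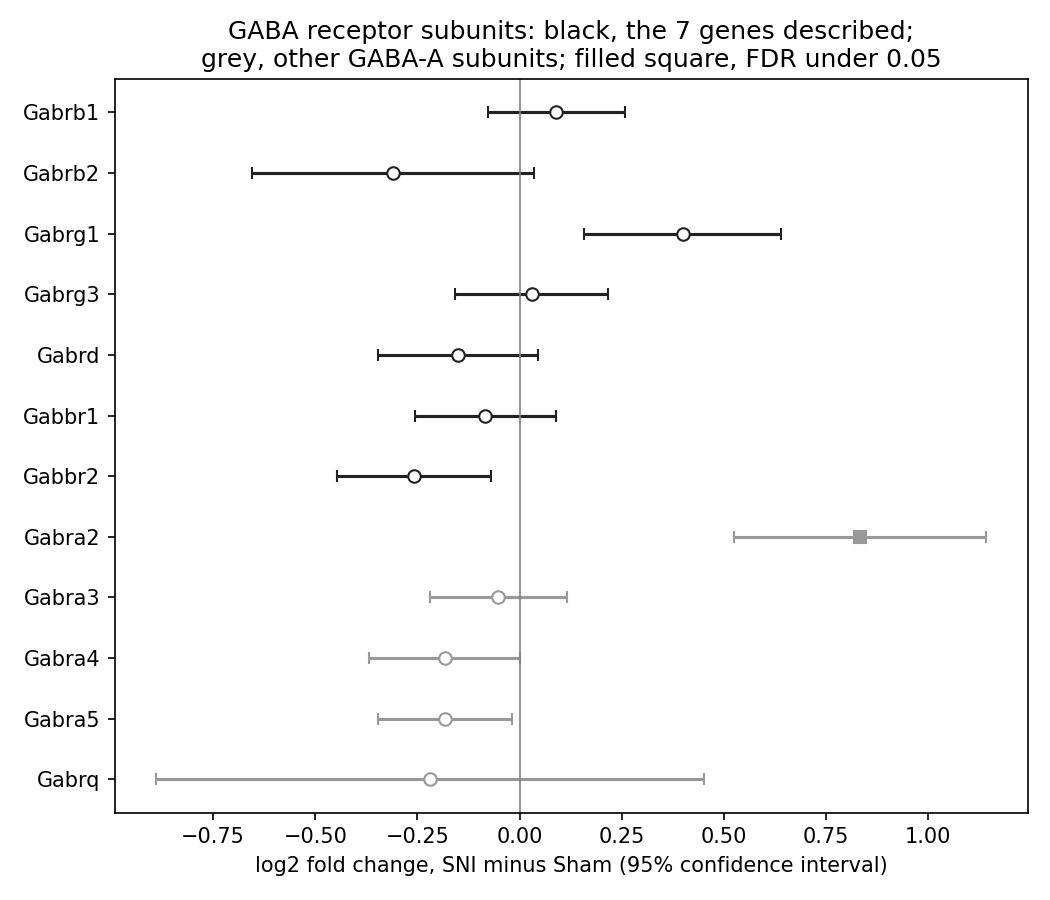
Log2 fold change, SNI minus Sham, with its 95% confidence interval (horizontal axis) for the 7 genes in black and 5 other tested GABA-A subunit genes in grey. Filled squares mark an FDR under 0.05, which Gabra2 at 0.83 had, and the intervals of Gabrg1 and Gabbr2 among the 7 leave out 0 before adjustment.

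Ratios of counts within a library do not depend on how libraries are scaled, and 4 subunit pairs were compared in this way. The Gabbr1 to Gabbr2 ratio, between the partners of the GABA-B receptor, was 1.86, 2.02, 1.81 and 1.96 in Sham and 2.06, 2.21, 2.08 and 2.28 in SNI. All SNI libraries stood above all Sham libraries, with a narrow gap between Sham replicate 2 and SNI replicate 1. The difference was 0.17 on the log2 scale, with an exact two-sided permutation p of 0.0286, the smallest that 4 against 4 allows, and 0.0571 adjusted over the 4 ratios. Relative to its partner, Gabbr2 thus took a smaller share of counts in every SNI library than in any Sham library, at an adjusted p above 0.05. Of the 4 ratios, only this one and the Gabrg1 to Gabrg3 ratio sat at the smallest possible p. In that case neither can reach an adjusted p under 0.05. That the adjusted p stayed above 0.05 is therefore partly set by the design and decides nothing.

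The Gabrg1 to Gabrg3 ratio was 0.518, 0.633, 0.58 and 0.687 in Sham and 0.692, 0.82, 0.827 and 0.766 in SNI. The groups did not overlap, but SNI replicate 1 and Sham replicate 4 were almost level. The difference was 0.37 on the log2 scale (exact two-sided permutation p = 0.0286, adjusted 0.0571). Since Gabrg3 itself had a log2 fold change of 0.03, this ratio largely repeats the Gabrg1 result. The Gabrb1 to Gabrb2 ratio was 1.60, 1.65, 1.30 and 1.27 in Sham and 1.61, 1.96, 2.50 and 1.69 in SNI. SNI replicate 1 fell between the Sham libraries, and SNI replicate 3 was highest. Its difference was 0.40 on the log2 scale (exact two-sided permutation p = 0.0571, adjusted 0.0762), and it was 0.27 without SNI replicate 3. The Gabrd to Gabra4 ratio pairs the delta subunit with an alpha subunit it commonly joins. It was 0.51 to 0.538 in Sham and 0.445 to 0.627 in SNI, a difference of 0.03 (exact two-sided permutation p = 0.771, adjusted 0.771). The Sham values were tightly grouped and the SNI values spread on both sides of them.

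**Figure D3:**
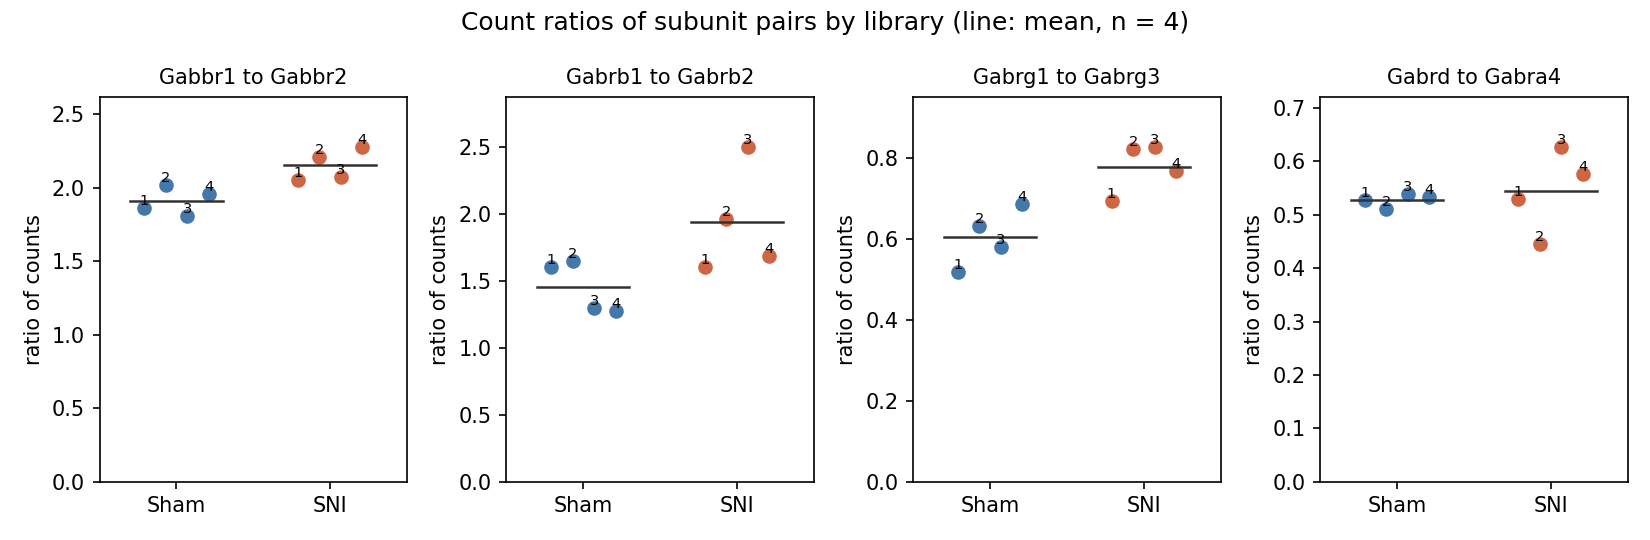
Ratio of counts of 4 subunit pairs (vertical axes, each from 0) by library in Sham and SNI, with points numbered by replicate and a line at the mean (n = 4). The SNI points of the Gabbr1 to Gabbr2 and Gabrg1 to Gabrg3 ratios lie above all Sham points, and those of the other pairs overlap Sham.

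To compare levels between genes, CPM was divided by the length of the gene's annotated exons merged together. On that scale (CPM per kb of exon) the order in Sham was Gabbr1 at 103.5 ± 2.95, Gabbr2 at 63.0 ± 4.77, Gabrd at 23.2 ± 2.29, Gabrb2 at 13.96 ± 2.82, Gabrb1 at 9.17 ± 0.82, Gabrg3 at 3.46 ± 0.171 and Gabrg1 at 3.16 ± 0.266 (SD, n = 4 per group). Over all 8 libraries the ranges of Gabrb2 and Gabrb1 overlapped, as did those of Gabrg3 and Gabrg1, and the other neighbours in this order did not overlap. In SNI the last pair changed places, with Gabrg1 at 4.16 ± 0.661 and Gabrg3 at 3.53 ± 0.363 CPM per kb (SD, n = 4 per group). The merged exon length was 13.84 kb for Gabrb1 and 11.93 kb for Gabrg3, against 6.36 kb for Gabrb2 and 7.87 kb for Gabrg1. Where the tissue uses shorter transcripts than the merged exons, this scale understates the level.

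**Figure D4:**
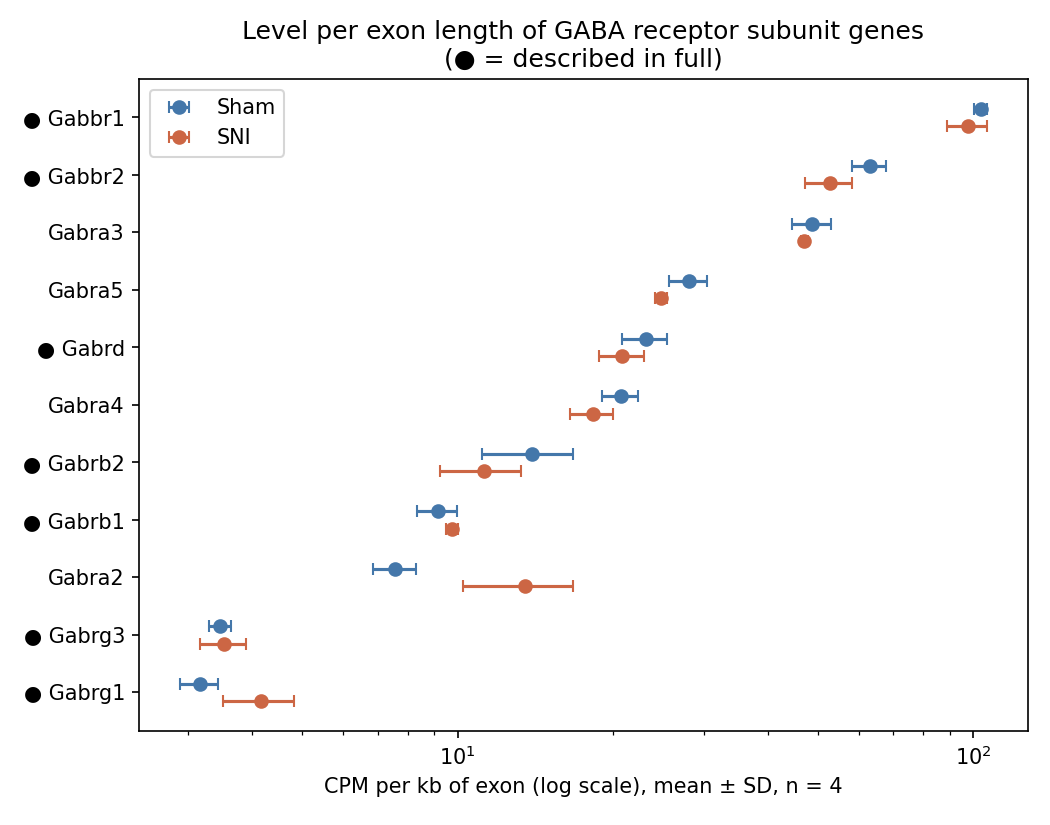
Level of the 7 genes and 4 other GABA receptor subunit genes in CPM per kb of merged exon (horizontal log axis), as mean and SD over 4 Sham and 4 SNI libraries, with the 7 genes marked by dots. Of the 7 genes Gabbr1 is highest at 103.5 in Sham and Gabrg1 lowest at 3.16. On the log axis, Gabra2 is the gene whose group means lie farthest apart.

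The rest of the GABA system was taken from lists chosen with earlier results of these data known. Of the GABA-A subunit genes outside the 7 that are given here, Gabra2 rose, and Gabra3, Gabra4, Gabra5 and Gabrq did not pass, with log2 fold changes of -0.05, -0.18, -0.18 and -0.22. Gabra5 overlaps the annotated antisense gene Gm9962, so its reads are uncertain. Gabre and Gabrr3 were too scarce to test, at 1 to 5 counts per library. Of 20 inhibitory postsynapse genes 0 rose and 0 fell, where 2.15% of all genes tested rose and 2.87% fell. An unadjusted p under 0.05 was found for 7 of the 20, where 21.1% of all genes had one, and the median was -0.13. The groups did not overlap for 6 of the 20, where 12.7% of all genes were so separated. The leading members were Gphn, the gephyrin scaffold that anchors GABA-A receptors, at -0.26 (edgeR adjusted p = 0.0625), and Slitrk3, an inhibitory synapse adhesion protein, at -0.30 (0.0681).

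Of 16 GABA-B partner and effector genes 3 fell and 0 rose, where 2.87% of all genes tested fell and 2.15% rose. Their median was -0.06, and 5 of the 16 had an unadjusted p under 0.05, where 21.1% of all genes did. Kctd16, an auxiliary subunit that binds Gabbr2 protein, fell: its level was 8.20 ± 1.40 CPM in Sham against 4.32 ± 0.188 CPM for SNI (SD, n = 4 per group). On the log2 scale that was -0.92 ± 0.167 (SE), with an edgeR adjusted p of 0.0064. Kctd16 kept its call whichever of the 8 libraries was left out. Its value was -0.75 with the striatal covariate (edgeR adjusted p = 0.202) and -0.90 without SNI replicates 2 and 3 (0.0602). Of all genes tested, 0.295% passed with that covariate and 1.26% without those libraries. The other auxiliary genes Kctd8, Kctd12 and Kctd12b had 0.22, 0.16 and 0.13 and did not pass. Kcnj3, a subunit of the potassium channel that GABA-B receptors open, fell by 0.27 on the log2 scale (edgeR adjusted p = 0.0479), and its partners Kcnj6 and Kcnj9 had -0.40 and -0.14 (0.144 and 0.508). Rgs7, which speeds the shut-off of that G protein signal, fell by 0.31 (edgeR adjusted p = 0.0493). The calls of Kcnj3 and Rgs7 were lost without 7 and 6 of the 8 libraries in turn, with edgeR adjusted p of up to 0.139 and 0.168, both without Sham replicate 3. They were also lost with upper quartile scaling (0.0751 and 0.0719) and library totals alone (0.102 and 0.095). A filter of 1 CPM in 4 libraries lost them too (0.0553 and 0.0556), as did the striatal covariate (0.231 and 0.331). So did the astrocyte covariate (0.0889 and 0.12), the replicate block, and leaving out either pair of SNI libraries. Both calls held with RLE scaling, no low-count filter, DESeq2 (adjusted p = 0.00943 and 0.0178) and limma voom (adjusted p = 0.0144 and 0.0127). Of all genes tested, 1.84% to 6.12% passed with 1 library left out.

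Of 9 genes for GABA synthesis, loading, uptake and breakdown 0 passed, where 5.02% of all genes tested did. An unadjusted p under 0.05 was found for 1 of the 9, where 21.1% of all genes had one, and the median was -0.12. Slc6a11, the GABA transporter GAT3, had -0.22, and Gad1 and Gad2, which make GABA, had -0.21 and 0.05. Of 2 chloride transporters 1 fell (Slc12a5), where 2.87% of all genes tested fell. Slc12a5, the neuronal chloride extruder that sets the driving force of GABA-A currents, went from 672 ± 22.3 to 523 ± 72.0 CPM (SD, n = 4 per group). On the log2 scale that was -0.36, with an edgeR adjusted p of 0.0365. That call was lost without 7 of the 8 libraries in turn, with an edgeR adjusted p of up to 0.11 (without SNI replicate 3). It was also lost with library totals alone (0.0541), the striatal covariate (-0.25, edgeR adjusted p = 0.463), the astrocyte covariate (-0.31, 0.0827), the replicate block, and without SNI replicates 2 and 3 (-0.21, 0.159) or 2 and 4 (-0.30, 0.134). Of all genes tested, 0.295% passed with the striatal covariate and 2.87% with the astrocyte covariate. The Slc12a5 call held with upper quartile or RLE scaling, either other low-count filter, DESeq2 (adjusted p = 0.00514) and limma voom (adjusted p = 0.0293). Slc12a2, the chloride importer, had 0.25 (edgeR adjusted p = 0.248).

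For each of the 7, the genes with the most similar pattern over the 8 libraries were sought among 10440 others with a mean log2 CPM of at least 3. Likeness was the root mean square difference between log2 levels centred on each gene's mean, and it says nothing of shared function. Gabrg1, whose own spread on this measure was 0.249, was nearest to Ctxn2 (0.061) and Tmed5 (0.065), which had log2 fold changes of 0.42 and 0.41. Gabbr2, with a spread of 0.171, was nearest to Armc6 (0.03) and Osbpl5 (0.044), at -0.25 and -0.23. Gabrb2, with a spread of 0.29, had Herc3 (0.122) among its nearest genes. Gabrd, with 0.145, was nearest to Phactr1 (0.051) and Exoc6b (0.061). The remaining 3 genes varied little. Gabrb1 (0.092) was nearest to Rc3h2 and Ccdc186, Gabrg3 (0.098) to Tmx3 and Ncl, and Gabbr1 (0.094) to Supt6 and Brd1.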

How the data were processed

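Poly(A) RNA from PrL tissue of 4 Sham and 4 SNI samples was sequenced. The authors deposited raw read counts per gene symbol, as whole numbers. Per the submitters' processing notes, fastp, HISAT2 and StringTie were used on GRCm38. The sources used here give no version, annotation, counting step or filter. Every gene in the table has a count of at least 1 in each library. Library totals were 14735602 to 19602487 counts, and no library copied another (chi-square per degree of freedom of same-group pairs at least 7.39).

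Differential expression was fitted over the whole table with edgeR 4.0.16 in R 4.3.3 (filterByExpr, TMM, robust quasi-likelihood F-test, group as the only term, Benjamini-Hochberg adjustment, FDR 0.05). The standard error is the log2 fold change divided by the square root of F. Log2 CPM used a prior count of 2. Ratios used counts plus 0.5 and an exact two-sided permutation test over 70 assignments. Positions and exon lengths come from GENCODE M21, promoters from RefSeq. The fit was tested on simulated data.

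The genes and lists were chosen with earlier results of these data known. Named genes were the 7 subunits, every other GABA-A subunit, list members past the FDR, otherwise the 2 of smallest p in a list, and the 2 most alike of each subunit. Some genes that this rule takes are not reported here. Of the marker lists, 5 thalamic and septal genes summed to 119.6 to 142 CPM in Sham and 128 to 139 CPM in SNI. In the same order the sums were 2950 to 6493 and 4132 to 7294 CPM for 6 oligodendrocyte genes. They were 243 to 289 and 218 to 295 CPM for 5 precursor genes, and 222 to 260.0 and 223 to 314 CPM for 5 endothelial genes. Of the last 3 lists 0 genes passed, where 5.02% of all genes tested did.

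Alternatives were other scalings and filters, DESeq2 1.42.0, limma 3.58.1 voom with quality weights, a replicate block, libraries left out, and striatal or astrocyte markers as a covariate. The 5 other genes past the FDR were put through them after seeing the data.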

Additional observations from a re-analysis of the deposited data

Results flagged for a closer look

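Gabrb1 in Sham replicate 3 stood at 143.7 CPM, while the other Sham libraries held 118.8 to 122.8 CPM. Gabrg3 in SNI replicate 2 stood at 48.5 CPM, while the other SNI libraries held 39.6 to 40.5 CPM. In each case a single sample lay far from the rest of its group by Dixon's test at the 95% level. Of 22 groups of 4 values checked 2 stood out in this way, and chance flags about 1 in 20.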

How the results depend on the processing

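Over 20 alternatives, Gabrb1, Gabrb2 and Gabrd kept their direction and stayed outside the threshold. Where 0 of the 7 genes passed in the reported fit, the count was 0 to 2 when 1 library was left out. Of all genes, 1.84% to 6.12% passed then. The count was 1 with upper quartile scaling, library totals alone and DESeq2, where 4.91%, 5.19% and 7.96% of all genes passed. Gabrg1 passed at 0.42, 0.45 and 0.39 on the log2 scale under those 3 settings. With 1 library left out the log2 fold change was 0.29 to 0.47 for Gabrg1, -0.33 to -0.21 for Gabbr2, -0.0482 to 0.0592 for Gabrg3, 0.06 to 0.16 for Gabrb1, -0.39 to -0.18 for Gabrb2, -0.20 to -0.10 for Gabrd and -0.13 to -0.05 for Gabbr1. Gabrg3 turned negative with limma voom (-0.0155), without SNI replicate 2 (-0.0482), without that library and SNI replicate 4 (-0.0588) or SNI replicate 3 (-0.0418), and with the striatal covariate (-0.0613). Gabbr1 turned positive in the absence of SNI replicates 2 and 3 (0.0229). The cause was not tested.

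With the replicate number as a block, Gabrg1 had 0.39 (edgeR adjusted p = 0.0523) and Gabbr2 -0.26 (0.135), and none of the 7 passed. The labels do not say that equal numbers mark a pair, and deviations of same-numbered libraries correlated at -0.15 to 0.059. Kcnj3, Rgs7 and Slc12a5 had edgeR adjusted p of 0.095, 0.0807 and 0.0542 under the block. For the ratios the paired sign-flip test cannot go below 0.125. It gave 0.17 for Gabbr1 to Gabbr2 and 0.37 for Gabrg1 to Gabrg3, both at an exact p of 0.125.

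With 1 library left out, the log2 difference was 0.15 to 0.20 for Gabbr1 to Gabbr2, 0.29 to 0.43 for Gabrg1 to Gabrg3, 0.27 to 0.48 for Gabrb1 to Gabrb2 and -0.037 (without SNI replicate 3) to 0.128 for Gabrd to Gabra4. For each of the first 2 ratios the exact two-sided permutation p then ran from 0.0286, the smallest possible, to 0.0571. Without SNI replicates 2 and 4 the differences of these 2 ratios were 0.11 and 0.33. Without SNI replicates 2 and 3 they were 0.18 and 0.28. With either pair left out, no exact p can go below 0.0667. Over all genes, 698 passed in the reported fit (299 higher, 399 lower), 446 higher and 276 lower with library totals alone, and 342 and 341 with upper quartile scaling. The total was 1153 with DESeq2, 258 to 858 with 1 library left out, 438 and 178 without SNI replicates 2 and 4 or 2 and 3, 41 with the striatal covariate and 399 with the astrocyte covariate.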
